A study of Mus musculus with 56 samples.

Results

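The core circadian clock was followed through 10 of its genes across all libraries of a mouse skeletal muscle series: Arntl, Clock, Npas2, Per1, Per2, Per3, Cry1, Nr1d1, Nr1d2 and Ciart. They were taken by symbol from the deposited table of normalised read counts, which held 10 of 10 of them among 14871 genes. Bulk RNA sequencing measured transcripts in tibialis anterior, a fast muscle of the lower leg, in 56 libraries and 14 groups. The mice were wild type (WT), or heterozygous (HET) or homozygous (HOMO) for the titin mechanical knock-out (mKO) allele, in which the sarcomere's giant spring protein, titin, can be cut by the protease of tobacco etch virus (TEV). Muscles received saline or adeno-associated virus (AAV) that carried TEV protease fused to green fluorescent protein (GFP). WT and HOMO mKO muscles were dissected 3, 7 and 21 days post injection (dpi) and HET mKO muscles at 7 dpi. Groups of saline and AAV libraries numbered 3 and 5 (WT, 3 dpi), 3 and 4 (WT, 7 dpi), 4 and 4 (WT, 21 dpi), 4 and 4 (HOMO, 3 dpi), 4 and 5 (HOMO, 7 dpi), 4 and 4 (HOMO, 21 dpi) and 4 and 4 (HET, 7 dpi). All mice were killed with CO2. The promoter that drives the transgene, the age, sex and strain of the mice, the hour of dissection and the animal behind each muscle are not given in the sources used here. The p-values therefore measure the spread between samples, part of which may be technical.

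In the molecular clock, the transcription factor BMAL1, encoded by Arntl, pairs with CLOCK or its relative NPAS2. The pair binds E-boxes and switches on the Per and Cry genes, Nr1d1, Nr1d2, Ciart and output genes such as Dbp. PER and CRY proteins and CIART then repress the pair. NR1D1 and NR1D2 (REV-ERB alpha and beta) close another loop by repressing Arntl at ROR elements, which ROR factors use to activate it. Arntl and Npas2 transcripts therefore crest at the opposite time of day to Dbp, Per2 and Per3, in muscle as in other tissues, and the hour at which a muscle is frozen shifts most of them.

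Library facts were as follows. Whole reads recovered from the normalised values numbered 6.9 to 27.18 M (M, 1000000 reads) per library, with a median of 21.69 M. HOMO AAV replicate 2 at 7 dpi had the 6.9 M and every other library at least 14.98 M. Per library, the members had between 2 and 81 reads for Npas2 and between 722 and 4892 for Nr1d2, so Npas2 and Ciart (10 to 229 reads) carry the largest counting error. The transgene had 0 to 6 reads in the 26 saline libraries and 56 to 34407 in the 30 AAV libraries, as the injection labels say. The mKO allele itself was not checked here. Fast fibre markers (Acta1, Ckm, Myh4 and 5 others) were abundant in every group, with summed normalised counts from 52433 to 153197 over all libraries. In 2 WT libraries of 7 dpi, saline replicate 3 and AAV replicate 4, the clock genes stood apart from the rest of their groups. Results that rest on them are given with and without them. Part of the exons of Nr1d1 (263 bp) and Arntl (33 bp) overlap a gene on the opposite strand, Thra and Gm45355, and whether reads were counted by strand is not known here.

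Promoters of 9 of the 10 members matched RefSeq entries of GRCm38.p6, 13 start sites in all, each taken from 250 bases before to 50 after the start. On both strands 7 motifs were searched: the E-box CACGTG and its variant CACGTT, the D-boxes TTATGTAA and TTACGTAA, the ROR elements TAGGTCA and TGGGTCA, and the cAMP response element TGACGTCA, with no overlap among the matches shown. At least 1 of them was found in 6 members. The 5 promoters below are shown for the place of their genes in HET against HOMO saline muscle, described next. There Arntl was lower, Ciart, Per1 and Per3 were higher, and Cry1 did not pass. Letters run 5′ to 3′ on the gene's strand and capitals mark the motifs. Position -1 is the last base before the start.
Arntl: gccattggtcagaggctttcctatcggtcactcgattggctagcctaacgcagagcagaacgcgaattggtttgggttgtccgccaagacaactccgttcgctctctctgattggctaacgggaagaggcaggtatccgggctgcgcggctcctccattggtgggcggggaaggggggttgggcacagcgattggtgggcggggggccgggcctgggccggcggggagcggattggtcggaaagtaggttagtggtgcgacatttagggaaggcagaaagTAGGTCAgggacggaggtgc
Ciart: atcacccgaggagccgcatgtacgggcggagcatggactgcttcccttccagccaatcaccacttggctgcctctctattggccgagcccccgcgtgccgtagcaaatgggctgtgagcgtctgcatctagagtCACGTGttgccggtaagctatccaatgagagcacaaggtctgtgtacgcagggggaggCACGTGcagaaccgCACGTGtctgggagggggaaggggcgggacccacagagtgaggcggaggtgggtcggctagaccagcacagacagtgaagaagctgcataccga
Per1: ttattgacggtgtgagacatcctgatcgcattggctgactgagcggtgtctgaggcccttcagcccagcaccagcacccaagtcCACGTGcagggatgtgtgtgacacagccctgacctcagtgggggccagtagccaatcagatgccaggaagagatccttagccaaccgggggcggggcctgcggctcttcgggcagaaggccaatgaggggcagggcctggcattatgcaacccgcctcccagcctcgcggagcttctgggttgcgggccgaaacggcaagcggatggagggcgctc
Per3: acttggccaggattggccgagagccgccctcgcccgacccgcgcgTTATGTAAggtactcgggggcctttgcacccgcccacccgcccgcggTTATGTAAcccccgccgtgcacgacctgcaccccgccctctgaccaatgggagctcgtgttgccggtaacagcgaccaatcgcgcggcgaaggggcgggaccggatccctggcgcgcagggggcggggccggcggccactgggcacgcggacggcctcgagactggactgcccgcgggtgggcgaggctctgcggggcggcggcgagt
Cry1: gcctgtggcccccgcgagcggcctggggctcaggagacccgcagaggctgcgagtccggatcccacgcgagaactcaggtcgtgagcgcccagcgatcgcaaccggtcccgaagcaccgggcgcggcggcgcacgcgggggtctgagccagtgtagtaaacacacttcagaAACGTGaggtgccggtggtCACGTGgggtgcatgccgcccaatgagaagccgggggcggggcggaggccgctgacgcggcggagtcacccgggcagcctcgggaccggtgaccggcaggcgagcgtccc
Ciart, at chr3:95882179-95882478 on the minus strand, held 3 copies of CACGTG, beginning at positions -116, -58 and -44 from the start. Of all 32851 RefSeq promoters of this length, 7.15% held CACGTG. Per1 (chr11:69098699-69098998, plus strand) held it at -166 and Cry1 (chr10:85185005-85185304, minus strand) at -60. Cry1 also had the variant, read as AACGTG, at -79, and Nr1d1 had it at -28. The variant occurred in 4.68% of all promoters. Per3 (chr4:151044616-151044915, minus strand) held the D-box TTATGTAA at -205 and -158, a motif in 0.938% of all promoters. Arntl (chr7:113207261-113207560, plus strand) held the ROR element TAGGTCA at 31, found in 2.61% of all promoters. The other windows of Arntl and Per1, and those of Npas2, Clock and Nr1d2, held none of the 7 strings, which says only that these letters are not in these windows. By the GENCODE annotation of GRCm38, the activator genes span chr7:113207465-113314126 (Arntl, plus strand), chr5:76209868-76304792 (Clock, minus) and chr1:39193731-39363236 (Npas2, plus). The repressor genes span chr11:69095217-69109960 (Per1, plus), chr1:91415982-91459324 (Per2, minus), chr4:151003652-151044665 (Per3, minus), chr10:85131700-85185064 (Cry1, minus), chr11:98767932-98775333 (Nr1d1, minus), chr14:18204054-18239127 (Nr1d2, minus) and chr3:95878503-95882251 (Ciart, minus).

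The main contrast among the members lay in HET muscle, most clearly with saline. In HET mKO muscle given saline, Arntl was lower and Per2 and Per3 were higher than in WT and HOMO mKO muscle given saline on the same day. Per1, Ciart and the output gene Dbp rose against HOMO and did not pass against WT. From means of log2(value + 1), the scale of every limma change given here, Arntl fell 3.71-fold against WT and 5.58-fold against HOMO, and Per2 rose 3.70-fold and 5.45-fold. Across the 7 saline groups, limma's F test, with Benjamini-Hochberg adjustment over 13017 genes, called 9 of the 10 members, where 9.5% of all tested genes were called. Arntl had the highest F of the members, 17.02, with an adjusted p of 6.13e-08. Per2 followed with an F of 9.52 and an adjusted p of 5e-05, and Cry1 did not pass, at an adjusted p of 0.336. Without the HET groups the same test called 0 of 10 members while 6.91% of all genes (900) were called. That test was not planned, and the HET values had been seen to be apart. Fewer calls without them were largely set in advance and are no separate support for the contrast. The lowest adjusted p was then 0.0582, for Ciart, so no member passed among the 6 WT and HOMO saline groups.

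Arntl, the activator, showed the split library by library. The HET saline libraries had normalised read counts of 3.02, 4.90, 5.32 and 4.61. WT saline libraries of 7 dpi had 30.4, 24.8 and 8.80, and HOMO saline libraries had 42.2, 29.2, 26.0 and 22.1. All 4 HET values lay under those of the other 22 saline libraries, whose lowest was the 8.80 of WT replicate 3. The difference from WT was -1.89 ± 0.30 (SE) on the log2(value + 1) scale with an adjusted p of 0.000876 (limma, Benjamini-Hochberg over all genes), the smallest p of any gene in that comparison. Without WT replicate 1 or 2 that adjusted p was 0.12 or 0.0601, and in a fit of the compared groups alone it was 0.0588. From HOMO it was -2.48 ± 0.27 (adjusted p = 9.67e-09, limma). The group is compared with all other saline libraries here because its values were seen to be apart.

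The partners of BMAL1 were low in the same libraries. Clock had 22.8, 22.04, 24.5 and 23.9 in HET saline muscle, under the 27.0 to 50.6 of the other saline libraries. It fell by 0.74 against WT (SE 0.17, adjusted p = 0.0493, limma) and by 0.66 against HOMO (SE 0.16, adjusted p = 0.00631, limma). Npas2, the CLOCK relative, had only 0.136, 0.183, 0.453 and 0.362 and overlapped the lowest of the others, at 0.353. Against HOMO it fell by 1.29 (SE 0.25, adjusted p = 0.000765, limma). Against WT the change of -1.01 ± 0.27 did not pass in limma (adjusted p = 0.112), while edgeR and DESeq2 on the recovered reads called it lower, with adjusted p of 0.0402 and 0.00357. Their own log2 changes were -2.691 and -2.715. Adding 1 before the logarithm shrinks changes of values this small.

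The Per genes, the negative arm, lay on the other side. Per2 had 31.8, 26.2, 31.2 and 27.2 in HET saline muscle and 2.12 to 19.0 in the other 22 saline libraries, without overlap. Per3 had 76.6, 66.2, 63.4 and 64.3 against 13.6 to 61.4, also without overlap, although the 61.4 of WT replicate 3 came close. Per2 differed from WT by 1.89 ± 0.39 (adjusted p = 0.03) and Per3 by 1.24 ± 0.29 (adjusted p = 0.0493), both in limma, and neither passed in edgeR (0.131 and 0.178) or DESeq2 (0.0611 and 0.0787). Against HOMO they rose by 2.45 ± 0.37 and 1.33 ± 0.27, with adjusted p of 1.27e-05 and 0.000861. Per1, which also answers to stress hormones and other acute signals, had 112, 78.8, 89.3 and 97.4 and overlapped the 15.6 to 101 of the others. It passed against HOMO (1.61 ± 0.38, adjusted p = 0.00598, limma, and 0.0639 without HOMO replicate 1) and not against WT (0.83 ± 0.41, adjusted p = 0.751).

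Ciart was high like the Per genes, while the REV-ERB genes lay on opposite sides. Ciart, a repressor of BMAL1 and CLOCK, had 12.5, 9.15, 10.3 and 10.2 in HET saline muscle, with 1 of the other 22 libraries, WT replicate 3 at 9.74, inside that range. It rose by 1.84 ± 0.37 against HOMO (adjusted p = 0.000907, limma) and stood 1.54 ± 0.40 above WT without passing (adjusted p = 0.0907). Nr1d2 had 248, 229, 230.2 and 236, above every other saline library (129 to 214). Nr1d1 had 120.5, 95.8, 101 and 102, below every other saline library (123 to 231). Against HOMO, Nr1d2 rose by 0.61 ± 0.13 (adjusted p = 0.00144) and Nr1d1 fell by 0.82 ± 0.17 (adjusted p = 0.00132), so the paralogues went opposite ways in that comparison. Neither REV-ERB gene passed against WT in the limma fit of all libraries. Cry1, the cryptochrome of the repressor complex, had 15.4, 16.01, 15.4 and 18.98, inside the 10.2 to 18.9 of the others except for its highest library, and passed in neither comparison.

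Counted together, 4 of the 10 members passed between HET and WT saline muscle, where only 26 genes, or 0.2% of those tested, did. Between HET and HOMO saline muscle 9 of 10 passed, 5 higher and 4 lower, against 5.12% of all genes. The members' libraries did not overlap for 8 of 10 in the first comparison (9.91% of all genes) and for 9 of 10 in the second (14.6%). For 6 of 10 members the HET saline libraries lay all above or all below the other 22, as did 0.676% of all genes. The WT count depended on single libraries: it was 0 without WT saline replicate 1 or 2, 7 without WT replicate 3, and 1 without any one HET replicate. It was also 7 without both WT libraries that stood apart, and then Ciart (2.26, adjusted p = 0.000292), Npas2 and Nr1d2 passed as well. Those libraries, WT replicate 3 among them, were picked by clock gene values that lay toward the HET values. Leaving them out widens the contrast by choice, so the counts of 7 are no support for it. The count against HOMO stayed at 8 or 9 whichever library was left out.

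**Figure D1:**
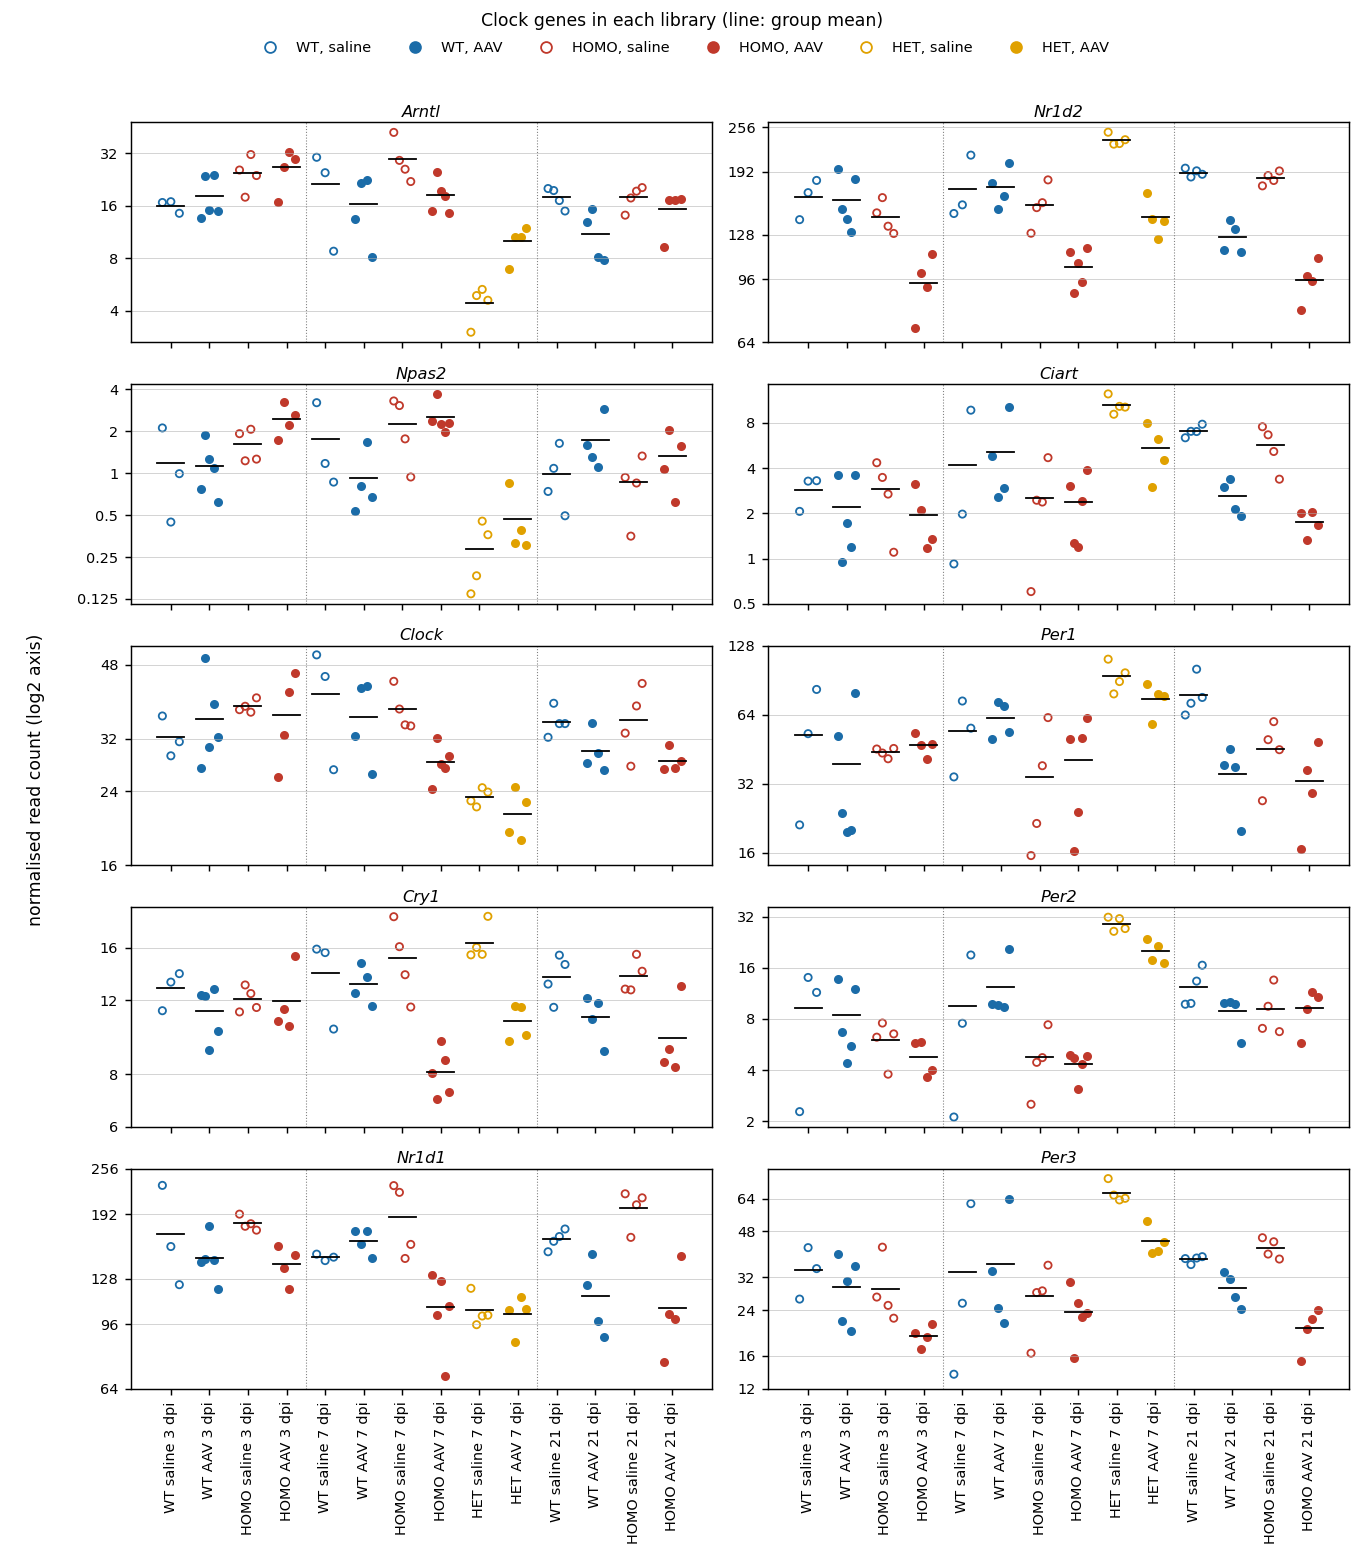
Normalised read counts of the 10 members (vertical log2 axes) in each of 56 libraries (points, open for saline and filled for AAV) in 14 groups, with the group mean as a line. The 4 open HET points at 7 dpi are lowest for Arntl at 3.02 to 5.32 and highest for Per2 at 26.2 to 31.8 among the saline libraries.

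Genes known as clock outputs moved with the members. Of the 8 measured output genes, 6 rose in HET against HOMO saline muscle and 0 fell: Hlf by 1.72 ± 0.28, Usp2 by 1.10 ± 0.18, Wee1 by 0.95 ± 0.20, Tspan4 by 0.89 ± 0.20, and, named after their values were seen, Dbp (1.31 ± 0.30) and Tef (0.64 ± 0.15). Dbp, Hlf and Tef encode the factors that bind D-boxes. Against WT, Hlf (1.33 ± 0.31, adjusted p = 0.0493) and Wee1 (0.99 ± 0.22, adjusted p = 0.0421) passed in limma. Dbp had normalised counts of 159, 140.3, 139 and 135 in HET saline muscle, and 143 in WT saline replicate 3 against 25.4 and 47.0 in the other two WT libraries. The median change over the list was 0.92 against HOMO and 0.76 against WT, beside -0.002 and -0.009 over all genes. Of 10 tested genes of the wider clock loops, Bhlhe41, an E-box repressor, rose against WT (0.67 ± 0.15, adjusted p = 0.0369) and HOMO (0.47 ± 0.14, adjusted p = 0.0265). The kinase gene Csnk1e rose against HOMO (0.48 ± 0.10).

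In the other gene lists given here, only Pdk4 was called in HET against both WT and HOMO saline muscle. Macrophage markers (10 genes) and fast fibre markers (8 genes) gave 0 calls in HET against WT or HOMO saline muscle. Summed macrophage counts were 57.1 to 97.1 in HET, 60.8 to 96.3 in WT and 65.4 to 102 in HOMO saline muscle of 7 dpi, with none of the 10 genes at 0. Fibroblast markers (4 genes) and endothelial markers (5 genes) also gave 0 calls, although their sums separated in part. Fibroblast sums were 513 to 710.2 in HET, 713.5 to 852 in HOMO and 574 to 701 in WT saline muscle, and endothelial sums 322 to 339 in HET, 354 to 416 in WT and 334 to 374 in HOMO. Slow fibre markers (Myh7, Tnnt1, Tnni1, Myl2 and Myl3) fell in HET against HOMO for 4 of 5, with sums of 78.6 to 216 against 188 to 490.4, and gave 0 calls against WT (68.9 to 226). Of the 8 heat shock and temperature genes, 4 fell against HOMO, among them Hsp90aa1 (-0.89 ± 0.17) and Hspa1a (-1.34 ± 0.37, uncertain because Hspa1b is nearly identical), and 0 changed against WT. Among 6 glucocorticoid-induced genes, only Pdk4 and Klf9 passed against WT or HOMO. Pdk4, which fasting also induces, fell against both, by 2.59 ± 0.59 and 2.10 ± 0.54. Klf9, another glucocorticoid target, rose against HOMO (0.57 ± 0.15), and of 8 immediate early genes Atf3 fell against HOMO (-2.48 ± 0.49) and 0 changed against WT. Atf3 was itself higher in HOMO than in WT saline muscle at 7 dpi (2.27 ± 0.525, adjusted p = 0.0088, limma). Its difference between HET and WT was -0.22 ± 0.525. In these bulk libraries fewer cells of a type and less RNA per cell cannot be told apart. The part of fibre type, other cells, temperature, hormones or hour of dissection in the clock gene values was not tested. Genotype and any hour at which that group was dissected cannot be told apart in these groups.

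HET and WT muscle injected with AAV were compared at 7 dpi as well. Among the 7 AAV groups, HET muscle had the lowest means of Arntl (10.05), Clock (21.2), Npas2 (0.468) and Nr1d1 (102.7). It had the highest means of Per1 (75.3), Per2 (20.01), Per3 (44.1) and Ciart (5.455), but was at neither end for Cry1 and Nr1d2. The next means were close for Arntl (11.07, WT at 21 dpi), Nr1d1 (106.4, HOMO at 21 dpi) and Ciart (5.13, WT at 7 dpi). Arntl had 6.93, 10.7, 10.6 and 12.01 in HET and 13.4, 21.7, 22.4 and 8.18 in WT, so the libraries overlapped through WT replicate 4. Its difference of -0.59 ± 0.27 did not pass in limma (adjusted p = 0.0838), while edgeR (0.0462) and DESeq2 (0.0371) called it lower. Per2 had 23.5, 17.8, 21.6 and 17.1 in HET against 9.75, 9.64, 9.41 and 20.8 in WT. The overlap of HET and WT libraries in both genes came from WT replicate 4 alone, at 8.18 and 20.8. Clock (-0.72 ± 0.16, adjusted p = 0.000286) and Nr1d1 (-0.66 ± 0.17, adjusted p = 0.00158) passed in limma, 2 of 10 members beside 40.2% of all genes, so the count is no result about clock genes. Nr1d2, high in HET saline muscle, was 143.3 in HET and 174.0 in WT muscle on average (-0.28 ± 0.13, adjusted p = 0.0767), and was called lower without HET replicate 1 (-0.36, adjusted p = 0.0334) or WT replicate 2 (-0.34, adjusted p = 0.0438). Without both WT libraries that stood apart, 5 passed, with Arntl lower (-0.86, adjusted p = 0.0047) and Per2 (0.98) and Per3 (0.73) higher. Those libraries were picked by their clock gene values, which lay toward the HET values. The share of all genes in that fit is not given here (40.2% with all libraries), so the 5 are no result about clock genes either. The macrophage list rose for 9 of 10 genes between HET and WT AAV muscle, with summed counts of 200 to 364 in HET and 62.8 to 126 in WT.

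**Figure D2:**
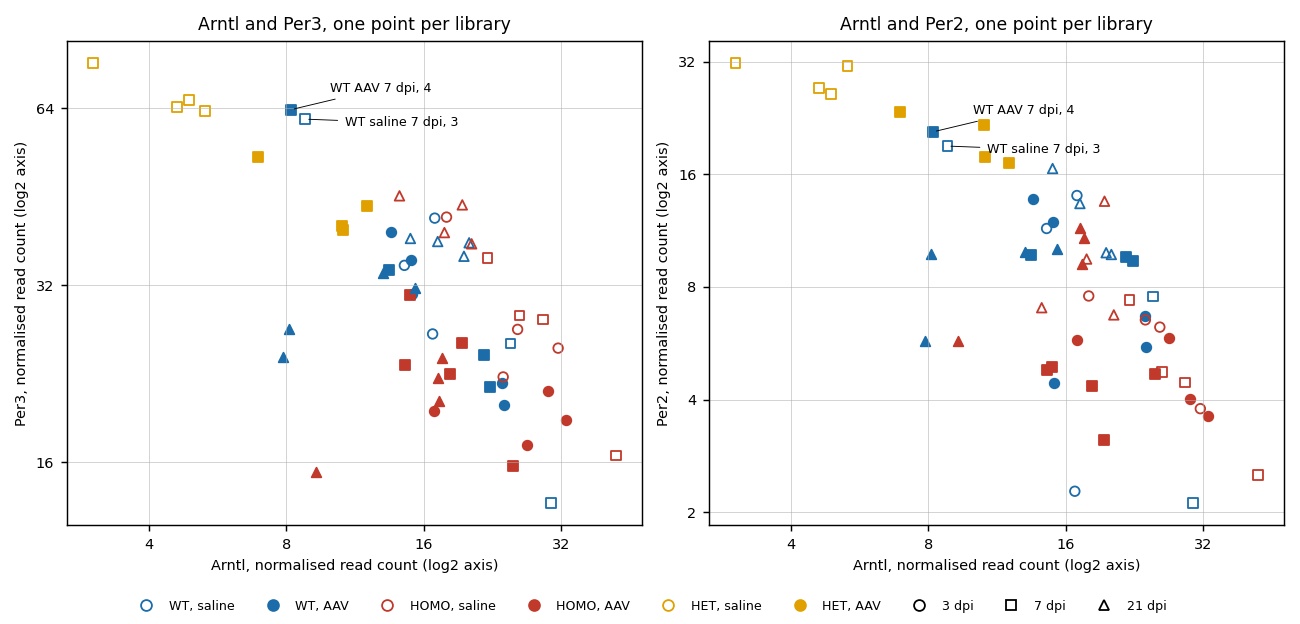
Arntl against Per3 (left) and Per2 (right), normalised read counts on log2 axes, 1 point per library, coloured by genotype, filled for AAV and shaped by day. The HET saline libraries sit at the top left, with Arntl at 3.02 to 5.32, and the 2 named WT libraries of 7 dpi, with Arntl at 8.80 and 8.18, lie nearest to them in Per3 at 61.4 and 63.7.

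No member passed between WT and HOMO saline muscle. HOMO against WT called 0 of 10 members at 3, 7 and 21 dpi (2.28%, 2.08% and 3.32% of all genes), and edgeR and DESeq2 also called 0. At an unadjusted p under 0.05 in limma there were 0, 0 and 1, beside 13%, 11.9% and 13.8% of all genes. Arntl had 16.7, 16.9 and 14.5 in WT and 25.7, 18.0, 31.5 and 23.9 in HOMO at 3 dpi. Those libraries did not overlap, yet the difference of 0.57 ± 0.30 had an adjusted p of 0.411. Per1 at 21 dpi had 63.8, 71.8, 101 and 76.1 in WT and 27.0, 49.8, 59.7 and 45.1 in HOMO (-0.81 ± 0.38, adjusted p = 0.329). In a fit of those groups alone it passed (adjusted p = 0.0279). Comparisons between days within WT or HOMO saline muscle called 0 members (0% of all genes, and 0.00768% for HOMO 21 against 7 dpi). For HOMO 21 against 7 dpi 5 members had an unadjusted p under 0.05 in limma, beside 4.62% of all genes, and edgeR and DESeq2 called 0. Arntl was at -0.68 ± 0.27 and Ciart at 1.01 ± 0.37. The other day comparisons had 0 (WT, 7 against 3 dpi, 3.07% of all genes), 1 (WT, 21 against 7 dpi, 3.87%) and 1 (HOMO, 7 against 3 dpi, 6.2%).

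Replicates of 1 group spread widely in several members. The SD within groups, on the log2(value + 1) scale with 42 residual degrees of freedom, was 0.574 for Per1, 0.547 for Ciart, 0.544 for Per2, 0.407 for Arntl and 0.397 for Per3, against a median of 0.202 over all genes. Only 2.07% of genes spread more than Per1, 2.49% more than Ciart and 2.57% more than Per2. Npas2 (0.364) followed, and Nr1d1 (0.251), Clock (0.232), Cry1 (0.192) and Nr1d2 (0.185) lay near the median. The clearest case was WT saline muscle of 7 dpi. Its replicate 1 had Arntl at 30.4, Per2 at 2.12, Per3 at 13.6 and Ciart at 0.922, while its replicate 3 had 8.80, 19.0, 61.4 and 9.74. WT AAV replicate 4 had 8.18, 20.8, 63.7 and 10.2, close to saline replicate 3 although the injections differed. The deviations of these 2 libraries from their group means correlated at 0.38 (Pearson) over all tested genes. That does not set the pair apart: WT saline replicate 1 and AAV replicate 3 of 3 dpi reached 0.39. HOMO saline replicate 4 and AAV replicate 5 of 7 dpi reached 0.34.

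These single-library shifts were ordered among the members at 7 dpi. Across the 24 libraries of that day, the deviation of Arntl from its group mean correlated with that of Clock (r = 0.90, rho = 0.85, adjusted p = 0.000225) and Cry1 (r = 0.69, rho = 0.62, adjusted p = 0.00457). It ran opposite to Per3 (r = -0.94, rho = -0.91, adjusted p = 9e-05), Ciart (r = -0.93, rho = -0.90, adjusted p = 9e-05), Nr1d2 (r = -0.90, rho = -0.89, adjusted p = 9e-05) and Per2 (r = -0.82, rho = -0.78, adjusted p = 0.000432). Npas2 went with Arntl (r = 0.59, rho = 0.55, adjusted p = 0.0411). Per1 (r = -0.39, adjusted p = 0.0747) and Nr1d1 (r = 0.11, adjusted p = 0.555) did not pass. All are two-sided permutation tests with 100000 resamples and Benjamini-Hochberg adjustment over 9 genes, and 1e-05 is the smallest p they can give. Without the 2 WT libraries of 7 dpi that lay farthest, r over 22 libraries was 0.82 for Clock, -0.88 for Per3, -0.88 for Ciart, -0.87 for Nr1d2 and -0.67 for Per2, all passing. Per1 then passed too (r = -0.55, adjusted p = 0.00546, permutation). The group means still included the 2 libraries left out, which shifts the deviations of the WT libraries that stayed. These values therefore cannot show that the order is independent of the 2 libraries. Libraries may share an animal, and those of 1 group share the mean subtracted from them.

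The order did not hold on every day. At 3 dpi (16 libraries) Clock had r = 0.75, Per3 -0.65 and Ciart -0.65, and none of the 9 passed (lowest adjusted p = 0.0565, permutation). At 21 dpi (16 libraries) the signs of 4 turned, with Per1 at 0.70 (rho = 0.58), Per3 at 0.67, Nr1d2 at 0.64 and Per2 at 0.44, Ciart was at -0.04, and none passed (lowest adjusted p = 0.131, for Per1, permutation). At 21 dpi the libraries lowest in Arntl were AAV libraries, HOMO replicate 1 (9.28) and WT replicates 3 and 4 (8.10 and 7.87). Each was low in Per3 within its own group (15.4, 27.0 and 24.1). Both WT values lay above every HOMO AAV library of that day (highest 24.05). Pooled over all 56 libraries r was 0.76 for Clock (rho = 0.71, adjusted p = 4.5e-05), -0.74 for Ciart (rho = -0.66, adjusted p = 4.5e-05), -0.68 for Per3 (rho = -0.52, adjusted p = 0.00039) and -0.39 for Nr1d2 (rho = -0.40, adjusted p = 0.0347). Without the 2 farthest libraries, whose values stayed in the group means, these were 0.69, -0.66, -0.55 and -0.27. Nr1d2 then no longer passed (adjusted p = 0.161, permutation).

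**Figure D3:**
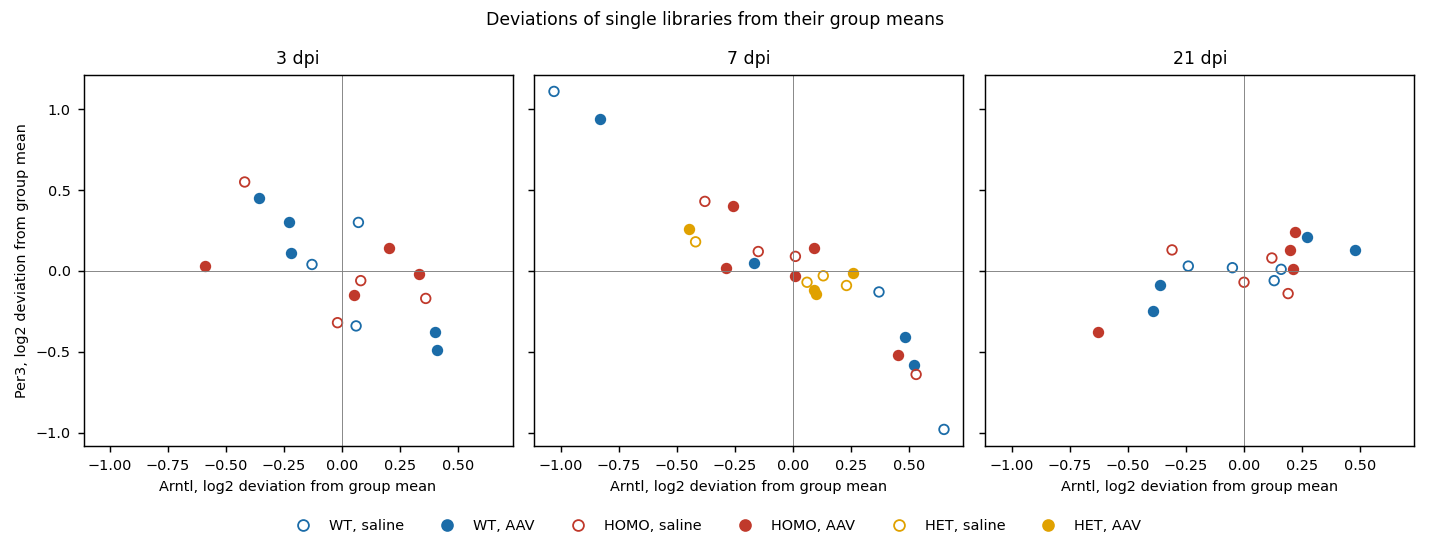
Deviation of Per3 against that of Arntl from the group mean, in log2(value + 1), 1 point per library, with a panel for each day (16, 24 and 16 libraries), coloured by genotype and filled for AAV. The points fall along a descending line at 7 dpi (r = -0.94), scatter with the same sign at 3 dpi (r = -0.65) and rise at 21 dpi (r = 0.67).

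Genes outside the 10 were ranked by likeness to Arntl, as Pearson r of within-group deviations over 56 libraries and 13017 genes, given as a description. The lowest was Dbp at -0.81, below every member, followed by Acat2 (-0.73), Tspan4 (-0.68), Hpn (-0.68) and Galnt5 (-0.66). Dbp was also the only gene below Ciart. The highest were Pik3ca, Relt and Arhgap20 (0.75 each), Slc38a2 (0.73) and Ifrd1 (0.73), all under the 0.76 of Clock. Nfil3, the D-box repressor that opposes Dbp, stood at 0.59. Nr1d1 was most like Hk2 and Ogdh (0.71 each), St8sia5 (0.67), Clec16a (0.66) and Zfand3 (0.66). It was least like Sf3b3 (-0.67), Ctsw (-0.66), Dynll1 (-0.63), Nsd3 (-0.63) and Slc4a7 (-0.62). With Dbp its r was 0.05.

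Among the 7 AAV groups the F test called 10 of 10 members beside 77.7% of all genes, and 7 beside 75.9% without HET. The AAV injection was then compared with saline within each genotype and day. In WT muscle at 3 and 7 dpi limma called 0 members and 0 genes (0% of all), and edgeR and DESeq2 called 0 members. At an unadjusted p under 0.05 in limma there were 0 members, beside 3.3% and 1.61% of all genes. In the other 5 comparisons 1 to 5 members passed, nearly always lower, beside 34.6% to 59.3% of all genes. WT at 21 dpi had 5 of 10 lower (40.9% of all genes passed, 21.3% lower), HOMO at 3 dpi had 1 (34.6% and 17.2%), HOMO at 7 dpi 5 (43.1% and 22.5%), HOMO at 21 dpi 5 (59.3% and 29.6%) and HET at 7 dpi 3 lower and 1 higher (40.4% and 20.8%). With shares this near to that of all genes, the counts are no result about clock genes. Median changes of the members were -0.49, -0.18, -0.29, -0.48 and -0.43 in that order, beside -0.013 to 0 over all genes. Without WT AAV replicate 4, WT at 21 dpi had 2 lower members, as Arntl, Nr1d1 and Per1 were lost. HOMO at 7 dpi had 3 without saline replicate 1, saline replicate 2 or AAV replicate 1, and Arntl and Clock were those lost.

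Nr1d2, the REV-ERB beta repressor, fell in all 5 of those comparisons. In HOMO muscle at 21 dpi it had 175, 187, 181 and 193 with saline and 79.0, 97.7, 94.7 and 109.8 with AAV, without overlap, a fall of 0.95 (SE 0.13, adjusted p = 1.58e-08, limma). It fell by 0.63 and 0.57 in HOMO muscle at 3 and 7 dpi, by 0.72 in HET muscle at 7 dpi and by 0.60 in WT muscle at 21 dpi, with adjusted p from 1.23e-05 to 0.000175. In WT muscle at 3 and 7 dpi the changes were -0.04 ± 0.13 and 0.03 ± 0.14. Its paralogue Nr1d1 fell in HOMO muscle at 7 dpi (-0.82 ± 0.16) and 21 dpi (-0.94 ± 0.17) and in WT muscle at 21 dpi (-0.54 ± 0.17). In HET muscle, where the saline level was already low, it was 104.8 ± 10.8 (SD, n = 4) with saline and 102.7 ± 12.02 (SD, n = 4) with AAV, a difference of -0.03 ± 0.17 (SE).

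Other members passed in fewer comparisons. Cry1 fell in HOMO muscle at 7 dpi, where saline libraries had 11.6 to 18.9 and the 5 AAV libraries 6.99 to 9.60 (-0.81 ± 0.13, adjusted p = 2.32e-06, limma). It also fell in HET muscle at 7 dpi (-0.58 ± 0.14) and HOMO muscle at 21 dpi (-0.47 ± 0.14). Ciart fell at 21 dpi in WT muscle, from 6.37 to 7.85 with saline to 1.93 to 3.37 with AAV (-1.18 ± 0.37, adjusted p = 0.00921), and in HOMO muscle (-1.24 ± 0.37, adjusted p = 0.00365). In HET muscle its fall of 0.90 (SE 0.37, adjusted p = 0.0478) did not pass in edgeR (0.111) or DESeq2 (0.103), nor without 7 of the 8 libraries in turn. Per1 fell in WT muscle at 21 dpi (-1.16 ± 0.38, adjusted p = 0.0133) and Per3 in HOMO muscle at 21 dpi (-0.999 ± 0.27, adjusted p = 0.00127). Npas2 and Per2 passed in none of the 7 comparisons.

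Arntl fell with AAV in some comparisons and rose in HET muscle. It fell with AAV in HOMO muscle at 7 dpi (-0.65 ± 0.26, adjusted p = 0.0383) and in WT muscle at 21 dpi (-0.69 ± 0.27, adjusted p = 0.038), each a call that 5 of the single libraries could end when left out. In HET muscle at 7 dpi it rose from 3.02 to 5.32 with saline to 6.93 to 12.01 with AAV, without overlap (1.01 ± 0.27, adjusted p = 0.00268, limma). The HET response exceeded the WT response at 7 dpi by 1.30 ± 0.40 (adjusted p = 0.017), and the Nr1d2 response, a fall in HET, lay below that in WT (difference -0.75, adjusted p = 0.00325), 2 of 10 members beside 20.2% of all genes. Both comparisons rest on the HET saline group described above. Arntl did not pass without WT saline replicate 1 or 2 or WT AAV replicate 4 (adjusted p = 0.105, 0.0631 and 0.0624), and 5 members differed in response without the 2 WT libraries that stood apart or without WT saline replicate 3 alone. The libraries that stood apart were picked by clock gene values, and the share of all genes in those fits is not given here. The 5 are therefore no result about clock genes. HOMO and WT responses differed at 7 dpi for Nr1d1 (-0.96 ± 0.24), Nr1d2 (-0.60 ± 0.18) and Cry1 (-0.75 ± 0.19), also 20.2% of all genes. Nr1d2 did not pass there without WT saline replicate 1 or 2 (0.0753 and 0.0518). They differed at 3 dpi for Nr1d2 (-0.59 ± 0.18, adjusted p = 0.032, 9.75% of all genes) and at 21 dpi for 0 members (5.62% of all genes). At 21 dpi 0 members had an unadjusted p under 0.05 in limma, beside 20.1% of all genes, and edgeR and DESeq2 called 0. Between 21 and 3 dpi the response of Nr1d2 differed in WT muscle (-0.57 ± 0.18, adjusted p = 0.0294, 15.4% of all genes). The 3 dpi call was lost without WT saline replicate 1, WT AAV replicate 1 or 5, HOMO saline replicate 1 or 2, or HOMO AAV replicate 1 or 3 of that day. The call between days was lost without WT saline replicate 1 or WT AAV replicate 1 or 5 of 3 dpi, or WT AAV replicate 1 or 4 of 21 dpi. In HOMO muscle 0 members differed between those days (18.7% of all genes), and edgeR and DESeq2 called 0. There 2 members had an unadjusted p under 0.05 in limma, beside 31.4% of all genes. Without HOMO AAV replicate 4 of 21 dpi, 2 members differed (Nr1d1 and Cry1).

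**Figure D4:**
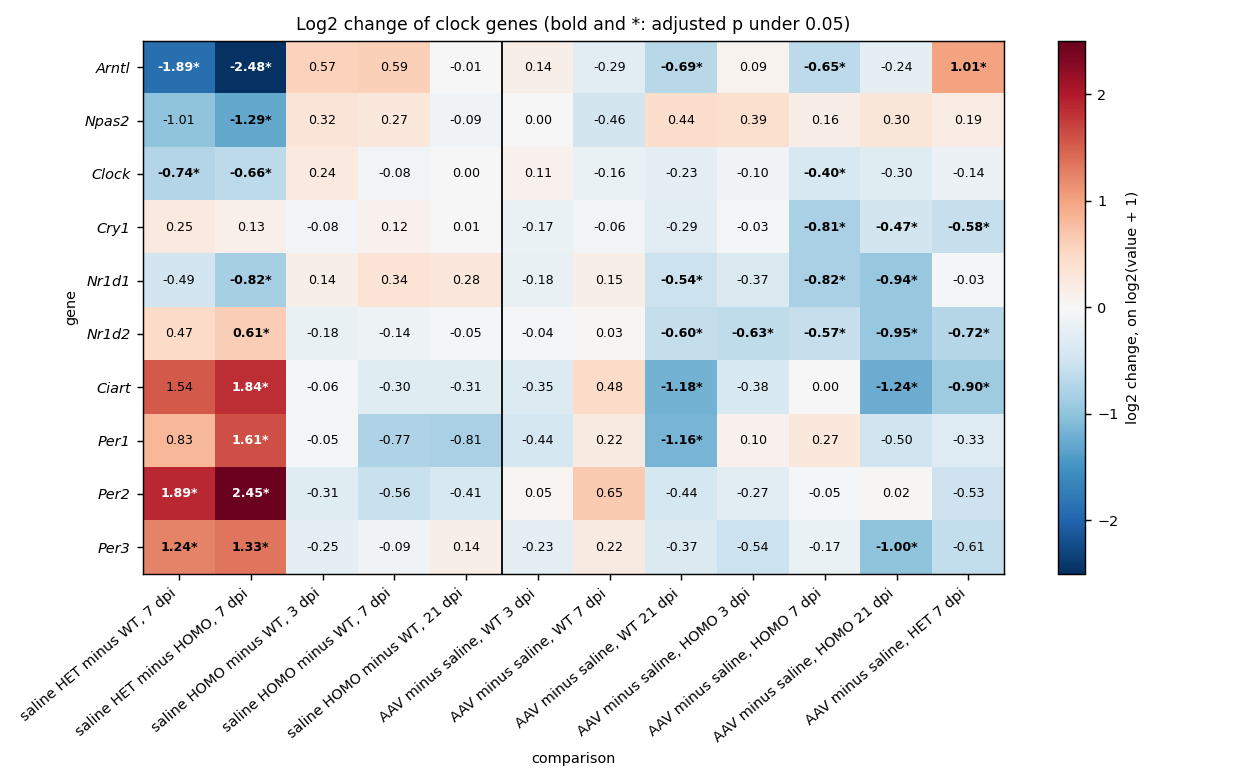
Log2 change of each member (rows) in 12 comparisons (columns), on the log2(value + 1) scale, where red is higher and blue lower in the first-named group and bold with a star marks an adjusted p under 0.05 in limma. The 2 columns of HET saline muscle at the left hold the strongest contrast, from -2.48 for Arntl to 2.45 for Per2, and Nr1d2 is lower in 5 of the 7 AAV columns.

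In the wider clock loops, of 10 tested genes, 5 fell in WT muscle at 21 dpi (21.3% of all genes fell), 3, 4 and 5 in HOMO muscle at 3, 7 and 21 dpi (17.2%, 22.5% and 29.6%) and 5 in HET muscle at 7 dpi (20.8%), and 0 rose. Bhlhe40, which encodes an E-box repressor, fell by 0.49 in WT muscle at 21 dpi, by 0.56 and 1.17 in HOMO muscle at 7 and 21 dpi and by 0.76 in HET muscle. Of the output genes, Hlf fell in 4 comparisons, by 1.59 in HOMO muscle at 21 dpi, where Dbp fell by 0.87. Others of that list rose: Tspan4 in HOMO muscle at 3 dpi (0.61 ± 0.20, adjusted p = 0.0169) and 21 dpi (0.64 ± 0.20, adjusted p = 0.00606), and Nfil3, named after its value was seen, at 21 dpi (0.58 ± 0.26, adjusted p = 0.0493). Of the 8 output genes, 3 fell in WT muscle at 21 dpi, 2 in HOMO muscle at 7 dpi, 3 in HOMO muscle at 21 dpi and 1 in HET muscle.

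Markers of other cells moved in the same 5 comparisons. All 10 macrophage markers rose, with sums of 239 to 1925 with AAV against 37.7 to 91.6 with saline in HOMO muscle at 21 dpi, and 200 to 364 against 57.1 to 97.1 in HET muscle. The T and natural killer cell markers rose for 6 of 6 genes at 21 dpi in WT and HOMO muscle, with sums of 14.3 to 82.0 and 41.0 to 160 with AAV against at most 1.48 with saline. Fast fibre markers fell for 5 to 8 of 8 genes and endothelial markers for 3 to 5 of 5. In HOMO muscle at 21 dpi the fast fibre sum was 52433 to 104107 with AAV and 139680 to 153197 with saline. The part of changed cell makeup in the clock gene values was not tested.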

How the data were processed

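RNA from frozen tibialis anterior went into directional libraries (NEBNext Ultra II), per the labels' protocols. FastQC, Bowtie, RSEM and limma and the build GRCm38/mm10 are named in the submitters' processing notes, with no versions. The authors deposited 1 table of normalised values, a linear signal per gene and library, and the count unit behind it was recovered here: each value equals reads plus 0.5 over a scaled library size, and 100.0% of values came out within 0.02 of a whole read. Depth was 6.9 to 27.18 M reads (M, 1000000) per library.

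Values were taken as log2(value + 1). Genes with a mean of at least 1 count per M (13017; each column rescaled to its total, transgene left out) entered limma 3.58.1 (R 4.3.3) with 1 mean per group over 56 libraries and a variance trend. Of the comparisons, 21 pairwise and 2 F tests were planned, and 2 pairwise ones, HET against HOMO saline and HET against WT with AAV, were added later. The F tests without the HET groups were not planned either. Benjamini-Hochberg adjustment ran over all genes tested, with a threshold of 0.05. Each fit was repeated with a pseudocount of 0.25 or 4, without the filter, with a minimum of 5, with quantile normalisation, on the compared groups alone, with replicate blocks and without each library, and calls were repeated with edgeR 4.0.16 and DESeq2 1.42.0 on recovered reads. Scripts were tested on simulated data with 200 changed genes. Correlations used deviations from group means (scipy 1.17.1).

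The members and lists were chosen with earlier results of these data known. Genes named by rule are the members, at most 4 genes of each other list per comparison (smallest adjusted p), and the 5 genes most and least like Arntl and Nr1d1. Of 26 saline and AAV pairs sharing a replicate number within genotype and day, 12 correlated above 0.1 over all genes (-0.24 to 0.31). Every pair did so in HET at 7 dpi and HOMO at 21 dpi, where a block for the pair left the counts at 4 and 5. No 2 replicates agreed within sampling noise (chi-square per gene at least 7.92). Values of some genes of the wider clock list are not reported here.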

Additional observations from a re-analysis of the deposited data

Results flagged for a closer look

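In groups of 4 or 5 libraries, Dixon's ratio flagged 5 values as far from the rest of their group, among 120 sets of 1 gene in 1 group. Chance flags about 5% of such sets, so the 5 flags are no more than chance gives. Arntl was lowest in HOMO AAV replicate 1 at 21 dpi, with a normalised read count of 9.28. Npas2 was highest in HET AAV replicate 1 at 7 dpi (0.858) and in HOMO AAV replicate 2 at 7 dpi (3.71), the library with 6.9 M reads (M, 1000000). Per2 was lowest in WT AAV replicate 4 at 21 dpi (5.75) and highest in WT AAV replicate 4 at 7 dpi (20.8), 1 of the 2 WT libraries described above.

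The response to AAV, on the log2(value + 1) scale, differed between groups for 4 genes by an interaction in limma with Benjamini-Hochberg adjustment over all genes. HOMO minus WT responses were -0.59 for Nr1d2 at 3 dpi (adjusted p = 0.032), and -0.96 for Nr1d1 (0.00445), -0.60 for Nr1d2 (0.0166) and -0.75 for Cry1 (0.0053) at 7 dpi. HET minus WT responses at 7 dpi were 1.30 for Arntl (0.017) and -0.75 for Nr1d2 (0.00325). In WT muscle the response of Nr1d2 at 21 dpi differed from that at 3 dpi by -0.57 (0.0294). The response comparisons of 1 day and genotype share libraries, and the cause of each value was not tested.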

How the results depend on the processing

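Counts are members called of 10. For saline HET against WT muscle (4) the count was 2 without the filter on low values, 2 with quantile normalisation, 1 in the groups alone, 2 with the replicate block, 7 without both WT libraries that stood apart, and 0 to 7 with single libraries left out. In the groups alone the 1 was Nr1d1 (adjusted p = 0.0338, limma). Arntl (0.0588), Clock (0.15), Per2 (0.159) and Per3 (0.244) no longer passed there. With quantile normalisation, HOMO at 7 dpi had 3, the response of HOMO against WT at 3 dpi 0, and the responses between 21 and 3 dpi 1 (HOMO) and 0 (WT). In the groups alone, AAV against saline had 3 (HOMO, 3 dpi) and 7 (HET), HOMO against WT saline at 21 dpi had 1, and the response of HOMO against WT at 3 dpi 0. The replicate block gave 0 for that response and 0 for WT between days, as did the block within genotype and day, which also gave 3 for HOMO at 7 dpi and 1 for the HET against WT response. It moved no other count by over 1.5 times. Without both WT libraries the HET against WT response had 5 and AAV muscle 5, and the saline F test without HET groups had 0. Those libraries were picked by their clock gene values, so higher counts without them are no separate support.

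With each library left out in turn, AAV against saline ranged from 3 to 5 (HET), 5 to 6 (HOMO, 21 dpi), 1 to 1 (HOMO, 3 dpi), 3 to 5 (HOMO, 7 dpi), 2 to 5 (WT, 21 dpi) and 0 to 0 (WT, 3 and 7 dpi). The F tests ranged from 7 to 9 (saline) and 10 to 10 (AAV), HET against HOMO saline from 8 to 9, and AAV muscle HET against WT from 2 to 5. Responses ranged from 2 to 5 (HET against WT), 0 to 1, 2 to 3 and 0 to 0 (HOMO against WT at 3, 7 and 21 dpi), and 0 to 2 (HOMO) and 0 to 1 (WT) between days. All other saline comparisons stayed at 0.

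Correlations with Arntl no longer passed at 3 dpi for Npas2 (0.51), Clock (0.75), Ciart (-0.65), Nr1d2 (-0.12), Per2 (-0.44), Per3 (-0.65) and Cry1 (0.27), nor at 21 dpi for Npas2 (0.01), Clock (0.43), Ciart (-0.04) and Cry1 (0.27). They turned at 21 dpi for Nr1d2 (0.64), Per2 (0.44), Per3 (0.67) and Per1 (0.70, from -0.18, neither passing). Nr1d2 stood at -0.27 without the 2 farthest libraries, and Per1 passed at 7 dpi without them (-0.55). Group means were not taken anew without them, so their influence was only partly removed. The cause of these shifts was not tested. Of the recomputed counts and correlations, 506 stayed the same, 48 moved, 12 no longer passed, 1 newly passed and 3 reversed. Of the values of single genes, 708 stayed on their side of the threshold, 94 no longer passed and 51 newly passed. Depth limits Npas2 and Ciart most, and HOMO AAV replicate 2 at 7 dpi among libraries.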
